A study of Gallus gallus with 9 samples.

Results

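Notch signaling passes between touching cells: a ligand on one cell, of the Delta or Jagged (Serrate) type, binds a NOTCH receptor on its neighbor, and the receptor is then cut so that its intracellular part enters the nucleus, joins the DNA-binding protein RBPJ and turns on target genes, among them repressors of the HES and HEY families. In the developing inner ear of birds and mammals the pathway first marks the patch of tissue that will become sensory, and later separates hair cells, which carry the ligands DLL1 and JAG2 while they form, from the supporting cells around them. The auditory sensory organ of birds is the basilar papilla, a strip of hair cells and supporting cells in which the base detects high sound frequencies and the apex low ones.

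The genes described here are 10 Notch ligands, receptors and targets, *DLL1*, *JAG1*, *JAG2*, *DNER*, *NOTCH1*, *NOTCH2*, *LFNG*, *HEY1*, *HEY2* and *HEYL*. They were taken by gene symbol from a table of 24880 genes, and each symbol had 1 row. The table held RNA-seq of the basilar papilla of untreated chickens at post-hatch day 1, cut into apex, middle and base, with 3 replicates of each region (9 libraries). Each replicate pooled tissue from 4 chickens (8 cochleas), 12 chickens and 24 cochleas in all, and the replicates of the 3 regions bear the same numbers. No strain, sex or genotype was given for the animals, and no region received a treatment, so every comparison is between positions along one organ. Libraries were made from poly(A) RNA of whole pieces, which also held cells outside the sensory epithelium.

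Levels are in FPKM, read pairs scaled by transcript length and by the size of the library, which allows levels of different genes to be set side by side. Regions were compared with limma on log2(FPKM + 1) across the 13045 genes with a mean of at least 1 FPKM in at least 1 region, a filter that all 10 genes passed. A gene was called a differentially expressed gene (DEG) where the Benjamini-Hochberg adjusted p over all genes tested was below 0.05 and the ratio of the region means was at least 1.5 in either direction. A log2 fold change on this scale understates the change of genes with low levels. The p-values rest on 1 spread per gene, that of the replicates within regions, pooled over the 9 libraries and moderated across genes. They do not use the shared replicate numbers, so they do not measure how a difference between regions varies from replicate to replicate.

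The libraries had similar totals, with summed FPKM between 660314 and 741975. Steps between low values gave relative fragment numbers up to 1.61 times that of base replicate 1, so depth was of one order in all libraries. Libraries numbered 2 stood apart in all regions by RNA of neuron markers: the 8 genes of that list summed to 1315 FPKM in the apex, 2722 in the middle and 617 in the base in replicate 2, against 109 to 537 FPKM in the libraries numbered 1 and 3. Results that change without the libraries numbered 2 are given beside the result. The sensory identity of the tissue was checked with 10 hair cell markers found in the table, which summed to 356 to 556 FPKM in the apex, 210 to 340 FPKM in the middle and 107 to 185 FPKM in the base. The supporting cell markers (6 genes) summed to 528 to 750 FPKM in the apex, 392 to 620 FPKM in the middle and 183 to 312 FPKM in the base.

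Of the 10 Notch genes, 6 were called higher in the apex than in the base and 0 lower. The 6 were the ligands *DNER* and *JAG2*, the receptor-modifying enzyme *LFNG* and the targets *HEY1*, *HEY2* and *HEYL*. Over all genes tested, 11.8% were called in this comparison, 7.15% higher and 4.66% lower in the apex. The median log2 fold change of the 10 genes was 0.63, against -0.01 over all genes tested. In these 6 genes every apex library lay above every base library, where 20.7% of all genes tested did so and 22.0% lay lower without overlap. The ligands *DLL1* and *JAG1* and the receptors *NOTCH1* and *NOTCH2* were not called. Of the same 10 hair cell markers, 9 were also called higher in the apex (median log2 fold change 1.98), and so were 4 of the 6 supporting cell markers (median 0.93). In bulk tissue, fewer cells of a type and less RNA per cell cannot be told apart.

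**Figure D1:**
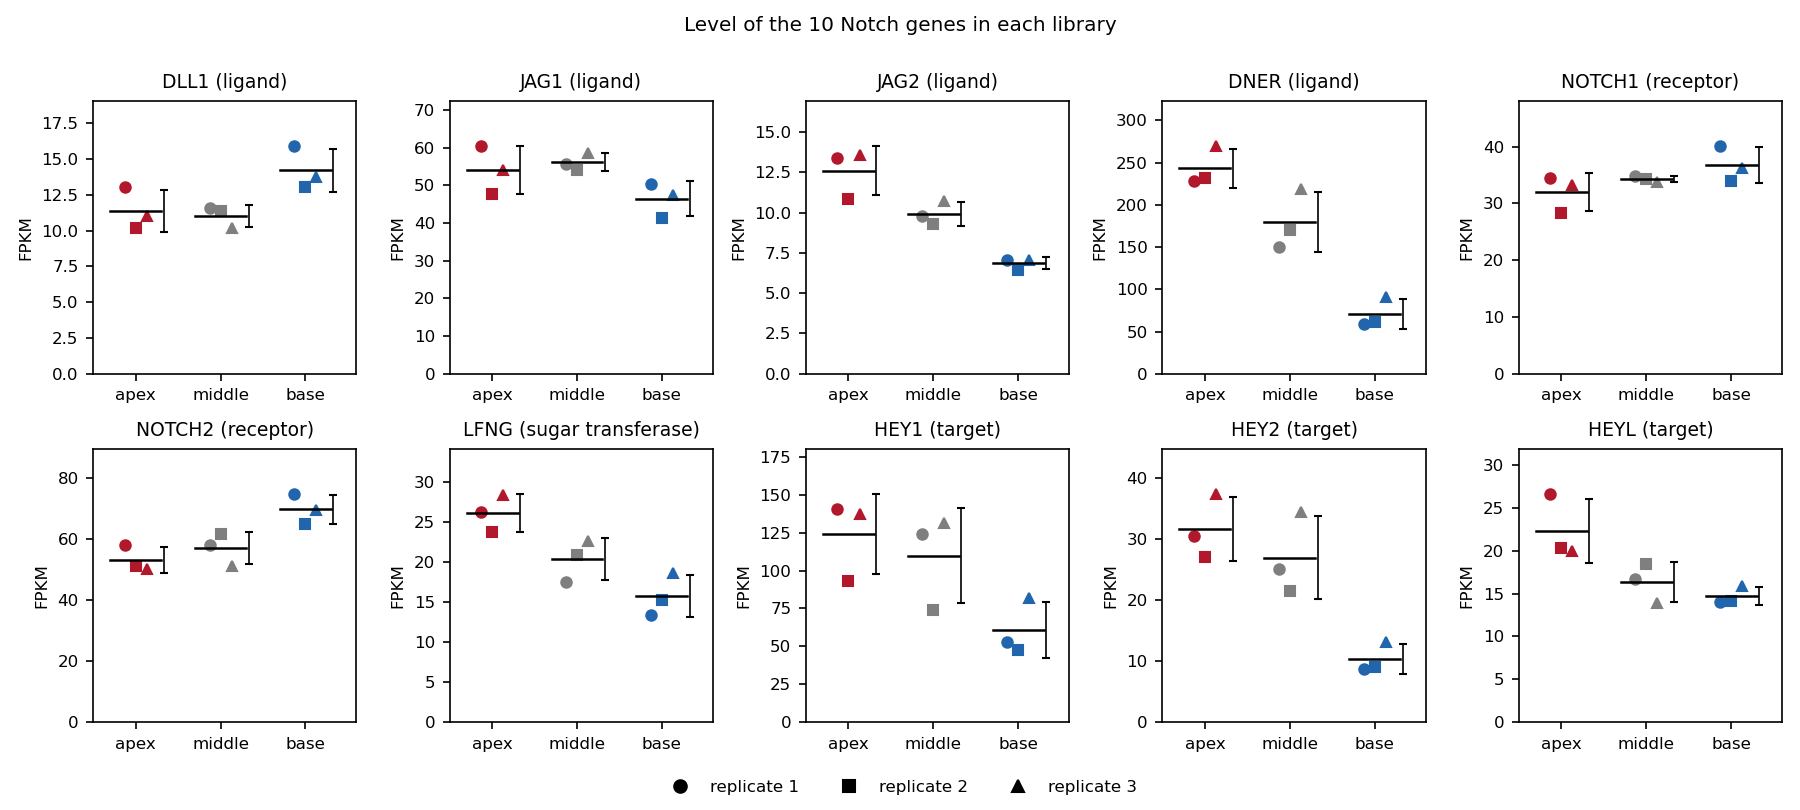
FPKM of the 10 Notch genes in each of the 9 libraries, with apex, middle and base along the horizontal axis of every panel, one point per replicate and a bar at the mean with its SD; each panel has its own vertical axis from 0. *DNER* and *JAG2* stand in 3 separate steps, while *JAG1* and *NOTCH1* overlap between apex and base.

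*DNER* (ENSGALG00000002958; galGal5 chromosome 9, positions 9937753 to 10044440) codes for a membrane protein with EGF repeats, first described in mouse neurons, that binds Notch without the domain typical of Delta and Jagged ligands. It had 229, 231 and 269 FPKM in the apex, 150.1, 171 and 218 FPKM in the middle and 58.8, 61.3 and 90.9 FPKM in the base (replicates 1, 2 and 3). No library of one region overlapped with those of another, and the base libraries lay far below the rest. *DNER* was the most abundant of the 10 genes in apex and middle, above 97.8% of all genes tested in the apex and 89.6% in the base. It rose 3.46-fold in the apex relative to the base (log2 fold change 1.80, SE 0.19, 95% interval 1.38 to 2.22, limma adjusted p = 0.00111). On the log2(FPKM + 1) scale, which understates genes with low levels, 94 of the other genes tested rose more than *DNER*. It also rose in the middle relative to the base (1.35, SE 0.19, limma adjusted p = 0.00949). The middle call was lost without base replicate 2 (limma adjusted p = 0.0501), and the adjusted p was 0.1001 without all libraries numbered 1 and 0.064 without those numbered 2. Apex over middle gave 0.45 (interval 0.02 to 0.87, limma adjusted p = 0.529) at a ratio of 1.35, short of 1.5. With the replicate number as a block, which compares the regions within a number, limma adjusted p was 0.0291.

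*JAG2* (ENSGALG00000011696; chromosome 5, 52195852 to 52255454), a Jagged ligand found on hair cells in mouse, moved the same way at a much lower level. It had 13.4, 10.9 and 13.6 FPKM in the apex, 9.76, 9.26 and 10.7 FPKM in the middle and 7.07, 6.41 and 7.04 FPKM in the base. Again no library of a region overlapped with those of another, although the gap between the lowest apex and the highest middle library was small. *JAG2* rose 1.84-fold in the apex relative to the base (log2 fold change 0.79, SE 0.10, limma adjusted p = 0.00167). The middle was 1.45 times the base (0.48, SE 0.10, limma adjusted p = 0.0264), short of the ratio of 1.5. This adjusted p stayed below 0.05 in 5 of 9 fits that left out 1 library (highest limma adjusted p 0.107).

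*JAG1* (ENSGALG00000009020; chromosome 3, 13514076 to 13530910) is the Jagged ligand of the prosensory patch and of supporting cells in chick and mouse. It had 60.3, 47.7 and 54.2 FPKM in the apex, 55.6, 54.1 and 58.7 FPKM in the middle and 50.5, 41.3 and 47.5 FPKM in the base. The apex and base libraries overlapped, and those of the middle lay above every base library. The log2 fold change of apex over base was 0.21 (interval -0.02 to 0.44, limma adjusted p = 0.169), and that of middle over base 0.27 (interval 0.04 to 0.50, limma adjusted p = 0.13).

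*DLL1* (ENSGALG00000011182; chromosome 3, 40973214 to 40979620), the Delta ligand of nascent hair cells, was the only ligand of the 4 with its highest mean in the base. It had 13.0, 10.2 and 11.0 FPKM in the apex, 11.6, 11.4 and 10.2 FPKM in the middle and 15.9, 13.0 and 13.8 FPKM in the base. Every middle library lay below every base library, while apex replicate 1 reached the level of base replicate 2. The log2 fold change was -0.30 for apex over base (interval -0.54 to -0.05, limma adjusted p = 0.083) and -0.34 for middle over base (interval -0.58 to -0.09, limma adjusted p = 0.0887).

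The 2 receptors had their highest means in the base. *NOTCH1* (ENSGALG00000002375; chromosome 17, 8295293 to 8329319) had 34.5, 28.3 and 33.2 FPKM in the apex, 34.8, 34.3 and 33.8 FPKM in the middle and 40.1, 34.0 and 36.2 FPKM in the base. Apex replicate 1 exceeded base replicate 2, and the log2 fold change of apex over base was -0.20 (interval -0.40 to 0.0047, limma adjusted p = 0.149). *NOTCH2* (ENSGALG00000002922; chromosome 8, 4177695 to 4256719) had 58.2, 51.1 and 50.4 FPKM in the apex, 57.9, 61.7 and 51.3 FPKM in the middle and 74.7, 65.0 and 69.5 FPKM in the base. For this receptor every base library lay above every apex and every middle library. The apex was 0.763 times the base (log2 fold change -0.38, SE 0.09, limma adjusted p = 0.0189), a difference below the adjusted p threshold but not past the ratio of 1.5. It stayed below the threshold in 6 of 9 fits that left out 1 library (highest limma adjusted p 0.0756). By adjusted p alone, whatever the ratio, 11.3% of all genes tested were lower in the apex. The table gives the same interval to a second, unnamed gene (ENSGALG00000039381, 0 FPKM in every apex library and 0 to 13.0 FPKM in the base), so that the share of reads each received is uncertain.

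*LFNG* (ENSGALG00000038515; chromosome 14, 3231456 to 3241840) codes for lunatic fringe, a Golgi enzyme that adds a sugar to the EGF repeats of NOTCH receptors and so changes how they respond to Delta and Jagged ligands. It had 26.3, 23.7 and 28.4 FPKM in the apex, 17.5, 20.9 and 22.6 FPKM in the middle and 13.4, 15.2 and 18.6 FPKM in the base. All apex libraries stood above those of the middle, while middle and base overlapped. *LFNG* rose 1.66-fold in the apex relative to the base (log2 fold change 0.70, SE 0.13, limma adjusted p = 0.00774, and 0.0739 without the libraries numbered 1). Middle over base was 0.35 (interval 0.05 to 0.66, limma adjusted p = 0.136), and that of apex over middle was of the same size (0.35, interval 0.05 to 0.66, limma adjusted p = 0.473).

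The HEY genes code for basic helix-loop-helix repressors that Notch turns on. *HEY1* (ENSGALG00000035031; chromosome 2, 121291569 to 121294409) had 141, 93.4 and 138 FPKM in the apex, 124, 73.6 and 131 FPKM in the middle and 52.9, 47.7 and 81.9 FPKM in the base. It was lowest in replicate 2 of each region, so that middle replicate 2 fell below base replicate 3, while apex and base did not overlap. *HEY1* rose 2.04-fold in the apex relative to the base (log2 fold change 1.03, SE 0.28, limma adjusted p = 0.0294). This call was lost without any one of 4 libraries: limma adjusted p was 0.103 without base replicate 1, 0.1003 without base replicate 2, 0.0875 without apex replicate 1 and 0.0983 without apex replicate 3. It was also lost without the libraries numbered 1 (limma adjusted p = 0.261) or numbered 3 (0.0798), and kept without those numbered 2.

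In the middle, *HEY1* was 1.80 times the base (log2 fold change 0.84, interval 0.20 to 1.47, limma adjusted p = 0.0968). With the replicate block, *HEY1* passed in the middle as well (limma adjusted p = 0.0038). It also passed without middle replicate 2 (limma adjusted p = 0.0365). Apex and middle of *HEY1* differed by 0.20 with an interval from -0.44 to 0.83.

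*HEY2* (ENSGALG00000034716; chromosome 3, 60044511 to 60053824) is expressed in supporting cells of the mouse cochlea. It had 30.5, 27.1 and 37.3 FPKM in the apex, 25.0, 21.4 and 34.4 FPKM in the middle and 8.70, 8.95 and 13.1 FPKM in the base. The base stood clear of both other regions, and apex and middle overlapped. *HEY2* rose 3.08-fold in the apex (log2 fold change 1.55, SE 0.21, limma adjusted p = 0.00194) and 2.63-fold in the middle (1.31, SE 0.21, limma adjusted p = 0.0131), both relative to the base. Apex over middle was 0.24, with an interval from -0.23 to 0.71. The middle call was lost without base replicate 1 (limma adjusted p = 0.0573), base replicate 2 (0.0599) or middle replicate 3 (0.0519), and without the libraries numbered 1 (0.144) or numbered 2 (0.0547). The apex call was lost without the libraries numbered 1 (limma adjusted p = 0.0536).

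*HEYL* (ENSGALG00000044737; chromosome 23, 5495959 to 5502716) had the smallest fold change of the HEY genes relative to the base. It had 26.6, 20.3 and 19.97 FPKM in the apex, 16.8, 18.5 and 13.8 FPKM in the middle and 14.0, 14.1 and 15.9 FPKM in the base. The apex lay above both other regions in every library, and middle and base overlapped. *HEYL* rose 1.52-fold in the apex relative to the base (log2 fold change 0.56, SE 0.13, limma adjusted p = 0.0183), just past the ratio of 1.5. The call was lost without base replicate 1 (limma adjusted p = 0.0686), base replicate 2 (0.0627) or apex replicate 1 (0.0483, with a ratio below 1.5) and without the libraries numbered 1 (0.183), 2 (0.0624) or 3 (0.0501), and under quantile normalization the ratio fell below 1.5. Its interval in the table is shared with an unnamed gene (ENSGALG00000034986, 38.8 ± 4.68 FPKM in the apex, 31.6 ± 3.74 in the middle and 26.8 ± 1.39 in the base; SD, n = 3 each), so its values carry the same doubt as those of *NOTCH2*. The other 8 genes overlapped no other row of the table.

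**Figure D2:**
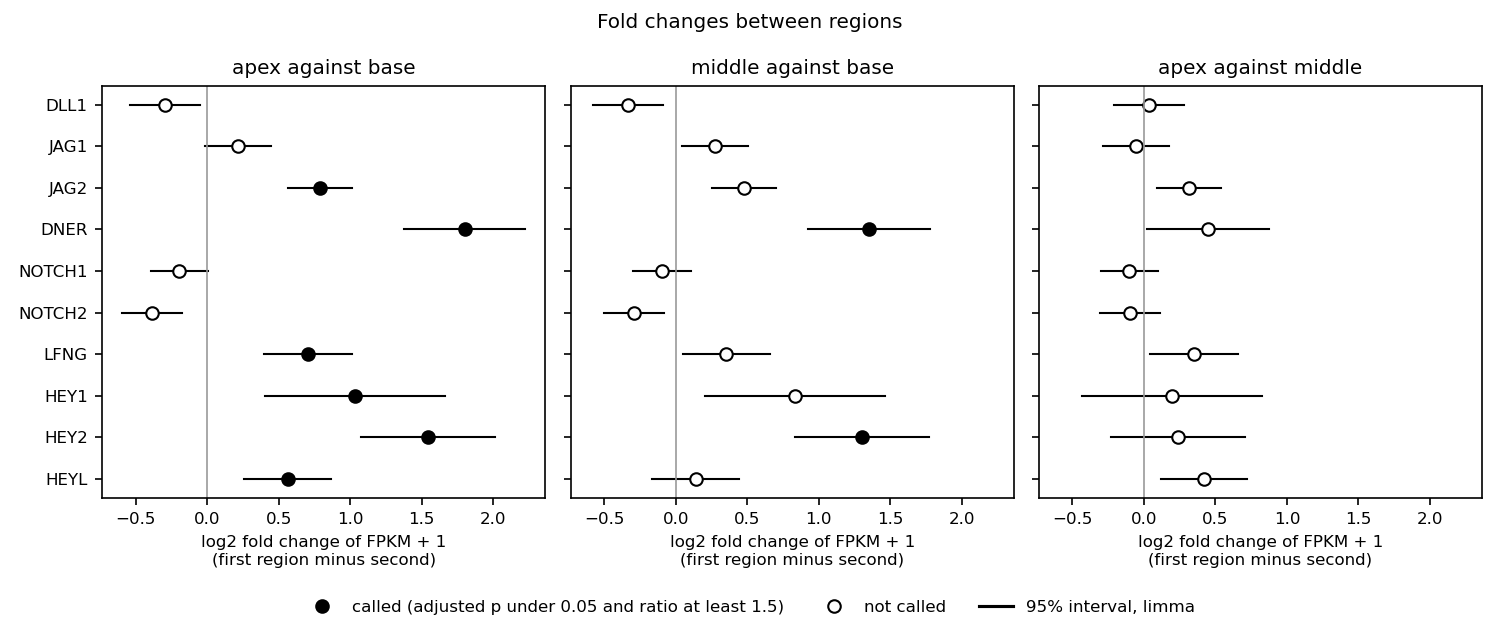
Log2 fold change of the 10 Notch genes, on the scale of log2(FPKM + 1), for apex against base, middle against base and apex against middle; points are limma estimates, bars their 95% intervals, and filled points are called. The filled points are the 6 genes called in the apex and *DNER* and *HEY2* in the middle, while no point of apex against middle is filled.

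In the middle, 2 of the 10 genes (*DNER* and *HEY2*) were called higher than in the base and 0 lower, where 4.39% of all genes tested were called, 2.93% higher and 1.46% lower. With the replicate block the count was 3 of 10, against 9.87% of all genes tested called in either direction and 7.63% called higher. Libraries of middle and base did not overlap for *JAG1*, *JAG2*, *DNER* and *HEY2*, higher in the middle, and for *DLL1* and *NOTCH2*, lower there, where 14.1% of all genes tested lay higher and 16.6% lower without overlap. Without the 3 libraries numbered 2, 0 of the 10 genes were called in the middle by limma, and 5 were called in the apex. Without those numbered 1 the counts were 0 and 2, and without those numbered 3 they were 2 and 4. These fits called fewer genes of the whole table as well. In the middle they called 0, 120 and 75 genes without the libraries numbered 1, 2 and 3, against 573 with all libraries. In the apex they called 623, 1245 and 925, against 1541. The block also brought several genes under the adjusted p threshold at ratios below 1.5, so that no call changed. In the apex relative to the base these were *DLL1* (limma adjusted p with the block 0.0166), *JAG1* (0.0344) and *NOTCH1* (0.0457). In the middle they were *DLL1* (0.0146), *JAG1* (0.0191), *LFNG* (0.0195) and *NOTCH2* (0.0256). In the apex relative to the middle they were *DNER* (0.0291) and *JAG2* (0.047).

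Between apex and middle, limma called 0 of the 10 genes, with and without the block, and 8 of all genes tested (0.0613%, and 2.11% with the block). With limma p-values that were not adjusted, 4 of 10 were below 0.05, all higher in the apex (*JAG2*, *HEYL*, *LFNG* and *DNER*), against 9.01% of all genes. The apex libraries of these same 4 genes did not overlap with those of the middle, where 6.78% of all genes tested lay higher without overlap and 6.07% lower. For these genes the order of means was apex, middle and base, but the difference between apex and middle did not pass the adjusted test without the block. With it, *DNER* and *JAG2* were below the adjusted p threshold, short of the ratio.

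By the formulas of the study for genes that change steadily along the organ, 6 of the 10 genes were Up-trend (a mean in the apex at least 1.5 times that of the base, each step at least 0.85 and a call in at least 1 comparison). These were *JAG2*, *DNER*, *LFNG*, *HEY1*, *HEY2* and *HEYL*, and 0 were Down-trend. The share of all genes tested in these categories was not computed here. All 6 were also called higher in apex against base, where 7.15% of all genes tested were called higher and 4.66% lower. Without overlap in both steps there were only *DNER* and *JAG2*, 2 of 10, where 1.86% of all genes tested rose in this way toward the apex and 2.68% fell. In each of the 3 same-numbered pairs of libraries the apex was above the base for the 6 genes and *JAG1*. It was below the base in each pair for *DLL1*, *NOTCH1* and *NOTCH2*.

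The makeup of the ligand pool differed along the organ. FPKM of the 4 ligands summed to 300.1, 315 and 348 in the apex (lowest, median and highest library), 227, 245 and 298 in the middle and 122, 132 and 159 in the base. *DNER* took 72.5 to 77.4% of this sum in the apex, 66.1 to 73.3% in the middle and 44.5 to 57.1% in the base. The Delta ligand *DLL4*, from the wider list below, was not in these sums (mean 8.84 FPKM in the apex, 8.76 in the middle and 7.55 in the base). Without *DNER*, the ligands *DLL1*, *JAG1* and *JAG2* summed to 68.8 to 86.7 FPKM in the apex and 74.7 to 79.6 FPKM in the middle. The base had 60.7 to 73.4 FPKM. The apex range overlapped those of middle and base, while every middle library lay above every base library. Of the 2 Jagged genes, *JAG2* took 18.1 to 20.03% in the apex, 14.6 to 15.4% in the middle and 12.3 to 13.4% in the base.

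The receptors summed to 79.4 to 92.7 FPKM in the apex, 85.0 to 96.1 FPKM in the middle and 99.0 to 115 FPKM in the base, with no overlap between the base and the other regions. *NOTCH2* was 1.52 to 1.81 times *NOTCH1* in the apex, 1.52 to 1.80 times in the middle and 1.86 to 1.92 times in the base. The HEY genes summed to 141 to 198 FPKM in the apex, 113 to 179.6 FPKM in the middle and 70.7 to 111 FPKM in the base. *HEY1* was the most abundant of them in every library, with 66.4 to 71.1% of the sum in the apex, 64.9 to 74.9% in the middle and 67.4 to 73.9% in the base. The share of *HEY2* was 15.4 to 19.2% in the apex, 15.0 to 19.2% in the middle and 11.5 to 12.6% in the base, so that the base libraries were below all others.

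Markers of the sensory epithelium moved in the same direction as the genes called. *SOX2*, a transcription factor of supporting cells, had a log2 fold change of 1.51 for apex over base, and *OTOF*, a hair cell gene of synaptic release, 2.68. The supporting cell list ran from 0.14 to 2.14 (median 0.93). The hair cell list ran from 0.88 to 2.68, with *OTOF* at its top. Among markers of cells outside the epithelium, 3 of 5 Schwann cell genes were called higher and 1 lower in the apex (summed FPKM 1755 to 2514 in the apex and 1010 to 1232 in the base), and 1 of 5 mural cell genes was called lower (319 to 405 FPKM in the apex and 436 to 504 FPKM in the base). No macrophage or mesenchyme gene was called. Their sums were still lower in the apex without overlap. Macrophage genes summed to 171 to 206 FPKM in the apex and 236 to 255 FPKM in the base. Mesenchyme genes summed to 3087 to 3924 and 4006 to 4818 FPKM, although 2 of the 5 tested rose. The sums of the endothelium, neuron and erythroid lists overlapped between apex and base. Each Notch gene was therefore also set against *SOX2* in the same library, a ratio chosen after the values had been seen. *DNER* was 13.9 to 15.4 times *SOX2* in the apex, 10.2 to 12.7 times in the middle and 11.8 to 14.6 times in the base, so that apex and base overlapped. *HEY2* was 1.80 to 1.94 times *SOX2* in the apex, 1.59 to 1.87 times in the middle and 1.71 to 2.13 times in the base. For *HEY2*, too, the ranges of apex and base overlapped.

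The other 8 genes were lower relative to *SOX2* in the apex than in the base, without overlap. *HEY1* was 6.21 to 8.54 times *SOX2* in the apex and 10.7 to 12.0 times in the base. *JAG2* was 0.706 to 0.812 times *SOX2* in the apex and 0.918 to 1.60 times in the base. The mean ratio in the apex was 0.512 times that of the base for *LFNG*, 0.465 for *HEYL*, 0.352 for *JAG1*, 0.261 for *NOTCH1*, 0.240 for *DLL1* and 0.230 for *NOTCH2*. Against the summed hair cell markers, *DNER* was 0.473 to 0.650 in the apex and 0.479 to 0.572 in the base, which overlapped. Against the summed supporting cell markers it was 0.345 to 0.438 in the apex and 0.274 to 0.336 in the base, higher in the apex without overlap. Against both sums *HEY2* overlapped between apex and base, and the other 8 genes were lower in the apex without overlap. The middle libraries of *HEY2* stood above those of both other regions against both sums. They had 0.0974 to 0.102 against the hair cell sum, where apex and base spanned 0.0631 to 0.0835. Against the supporting cell sum they had 0.0540 to 0.0556, where apex and base spanned 0.0405 to 0.0513. *DNER* in the middle was 0.586 to 0.813 against the hair cell sum, above every base library. Against the supporting cell sum its middle and base libraries overlapped. By mean, *TECTA* was the largest part of the supporting cell sum (433 FPKM in the apex and 105 FPKM in the base). The next was *SLC1A3*, with 122 and 76.6 FPKM. *TECTA* also had the largest rise of that list, so ratios to this sum depend heavily on 1 gene. The part of the amount of sensory epithelium per piece in the levels of the 10 genes was not tested. The ratios cannot show it, because the level of a marker per cell may itself differ between regions. They also depend on the marker. Log2 fold changes of apex over base were 2.14 for *TECTA*, 1.51 for *SOX2* and 1.19 for *PROX1*. The rest of the supporting cell list rose less (*SLC1A3* 0.67, *FGFR3* 0.57 and *OTOG* 0.14). *HEY1* (1.03), *JAG2* (0.79) and *LFNG* (0.70) lay between these groups, so their fall relative to *SOX2* depends on that choice. The log2 scale understates *PROX1*, which had a mean of only 1.23 FPKM in the base. In FPKM, the scale of the ratios, *PROX1* rose 3.28-fold, while *SOX2* went from 5.43 to 16.9 FPKM. The order of *SOX2* above *PROX1* therefore does not hold in FPKM. Ratios to other single markers were not tested.

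**Figure D3:**
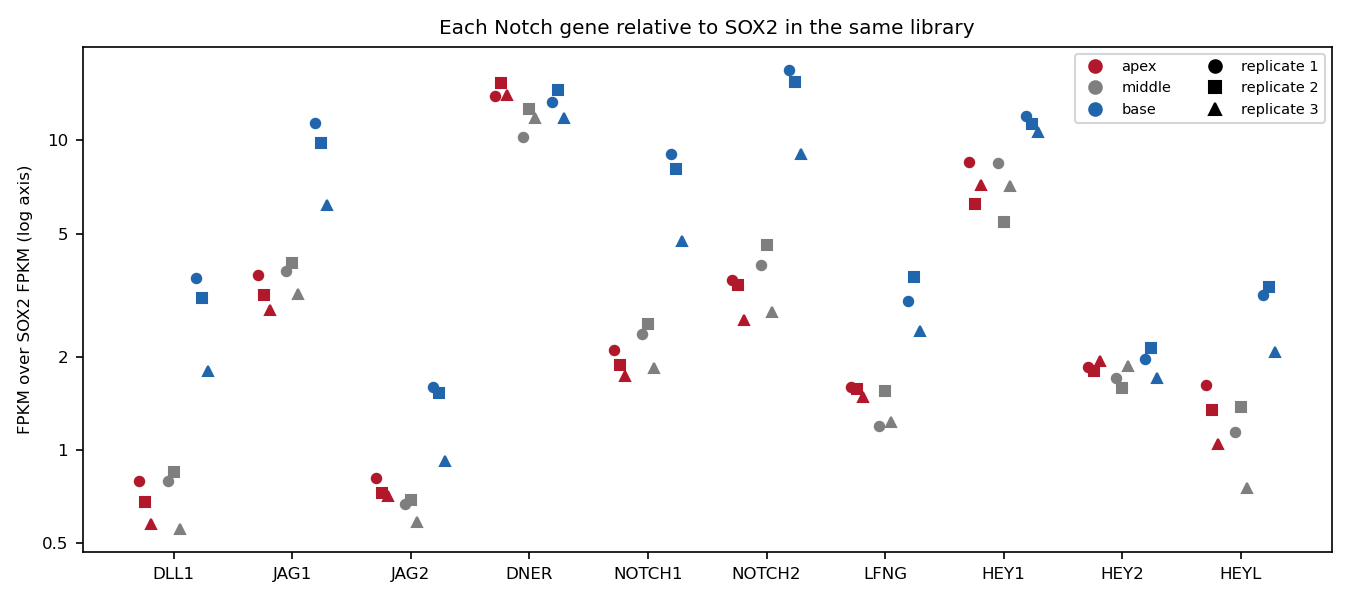
Ratio of each Notch gene's FPKM to that of *SOX2* in the same library, on a log axis, with apex, middle and base in each gene's column and one point per replicate. For *DNER* and *HEY2* the apex and base points overlap, and for the other 8 genes the base points lie above those of the apex.

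Across the 9 libraries the other genes correlated either positively or negatively with *DNER*, to differing degrees. Pearson's r on log2(FPKM + 1) was 0.98 for *DNER* and *HEY2*, 0.94 for *DNER* and *LFNG*, 0.94 for *DNER* and *JAG2*, and 0.93 for *HEY1* and *HEY2*. It was 0.92 for *NOTCH2* and *DLL1*, and -0.89 for *DNER* and *NOTCH2*. With *DNER*, r was smaller in size for *JAG1* (0.67), *HEYL* (0.67) and *NOTCH1* (-0.63). *JAG1* and *NOTCH1* were near 0 (0.09), so the genes did not form clean groups. These values describe 9 libraries that share their regions and replicate numbers, and much of each r is the difference between regions. Of 9931 genes with a symbol, the 3 most alike to *DNER* were *CACNA1B*, *FAXC* and *ELOVL4* (r from 0.995 to 0.997). To *HEY2* they were *BAIAP2L2*, *CCDC13* and *HS3ST6* (0.993 to 0.994), to *HEY1* *MPZL2*, *DSG2* and *SH2D4A* (0.988 to 0.995), and to *JAG2* *CFAP52*, *KCNA10* and *FAM81A* (0.987 to 0.990). *LFNG* was most like *COL14A1*, *JPH1* and *AFTPH* (0.979 to 0.983) and *HEYL* most like *NKD1*, *EGR1* and *B4GALT1* (0.931 to 0.953).

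The 4 genes that were not called had other companions. *JAG1* was most like *SLITRK5*, *DEF6* and *ADAMTS5* (r from 0.925 to 0.964), *DLL1* most like *MCU*, *FOXO1* and *RSRC2* (0.976 to 0.981), and *NOTCH1* most like *PABPC1L*, *ZCCHC14* and *CLK2* (0.969 to 0.973). *NOTCH2* was most like *AEBP1*, *CRTC1* and *HSPG2* (0.981 to 0.989), of which *HSPG2* codes for perlecan of basement membranes.

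The rest of the pathway was read from a list of 54 names, of which 41 had a row and all 41 were tested. In the apex 4 of 41 were called higher than in the base and 0 lower (9.76%), a share near the 11.8% of all genes, and the median log2 fold change of the list was -0.07. The target *HES5*, a repressor of the HES family that marks Notch activity in supporting cells of mouse, had 8.17, 5.51 and 5.52 FPKM in the apex, 7.64, 4.74 and 7.02 FPKM in the middle and 1.10, 0.985 and 1.41 FPKM in the base. Apex and middle of *HES5* overlapped and both stood clear of the base, the order also seen for *HEY2*. *HES5* rose 5.48-fold in the apex (log2 fold change 1.76, SE 0.19, limma adjusted p = 0.00121) and 5.54-fold in the middle (1.77, limma adjusted p = 0.00665), both relative to the base. The middle call was lost without the libraries numbered 1 (limma adjusted p = 0.0941) or numbered 3 (0.0641).

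*DLK2*, a membrane protein with EGF repeats that lacks the Delta domain, as *DNER* does, had 11.3, 8.71 and 13.9 FPKM in the apex, 6.98, 4.24 and 8.03 FPKM in the middle and 2.08, 1.47 and 4.10 FPKM in the base. Its apex libraries stood above all others, and middle and base stood apart by little. It rose in the apex relative to the base by 1.84 (SE 0.30, limma adjusted p = 0.004, and 0.0885 without the libraries numbered 1), and middle over base, 1.10, was called with the replicate block (limma adjusted p = 0.00114, against 0.0581 without it), without base replicate 3 (0.0292) or without middle replicate 2 (0.0363). *NEURL1*, a ubiquitin ligase that acts on ligands (0.74, limma adjusted p = 0.0172), and *RBPJL*, a relative of *RBPJ* (0.75, limma adjusted p = 0.0267), rose in the apex as well. Each of those last 2 calls was lost without any one of 4 libraries. For *NEURL1* limma adjusted p was 0.0644 without base replicate 1, 0.0587 without base replicate 2, 0.0537 without apex replicate 2 and 0.0614 without apex replicate 3, and it was 0.0843 without the libraries numbered 1 and 0.1295 without those numbered 2. For *RBPJL* it was 0.0982 without base replicate 1, 0.0755 without base replicate 2, 0.0846 without apex replicate 1 and 0.0869 without apex replicate 3, and it was 0.0600 under quantile normalization, 0.262 without the libraries numbered 1 and 0.123 without those numbered 3.

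Some nuclear partners of the receptor were lower in the apex by adjusted p alone, at ratios short of 1.5. Among these were the coactivators *MAML3* (log2 fold change -0.54, limma adjusted p = 0.0035) and *MAML2* (-0.39, 0.0279), *RBPJ* itself (-0.21, 0.0405) and the corepressor *CTBP2* (-0.28, 0.0323). The 6 genes of receptor cleavage (median 0.09) and the 4 of sugar transfer other than *LFNG* (median -0.13) held 0 calls in limma. *NOV*, a secreted matrix protein listed among ligands, had 28.4, 260.8 and 31.8 FPKM in the apex, 36.3, 47.4 and 25.4 FPKM in the middle and 218, 369 and 305 FPKM in the base. Apex replicate 2 alone reached the range of the base. *NOV* fell by 3.01 on the log2 scale in the middle relative to the base (limma adjusted p = 0.042), a call that was lost without any library of the base or middle, or without apex replicate 3 (limma adjusted p from 0.0519 to 0.145), without the libraries numbered 1 (0.197) or numbered 3 (0.275), without the filter on low values (0.0590) and without the intensity trend (0.0509). In the apex its log2 fold change was -2.21, called only with the replicate block (limma adjusted p = 0.0148, against 0.064 without it) or without apex replicate 2 (limma adjusted p = 0.00245) or all libraries numbered 2 (0.0109).

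In the middle 1 of the 41 genes was called higher (*HES5*) and 1 lower (*NOV*) than in the base, near the 4.39% of all genes tested. With the block the counts were 4 higher and 2 lower, where 9.87% of all genes were called. Between apex and middle limma called 0 of 41, and 2 with the block (*DLK1* and *DLK2*, both higher in the apex).

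**Figure D4:**
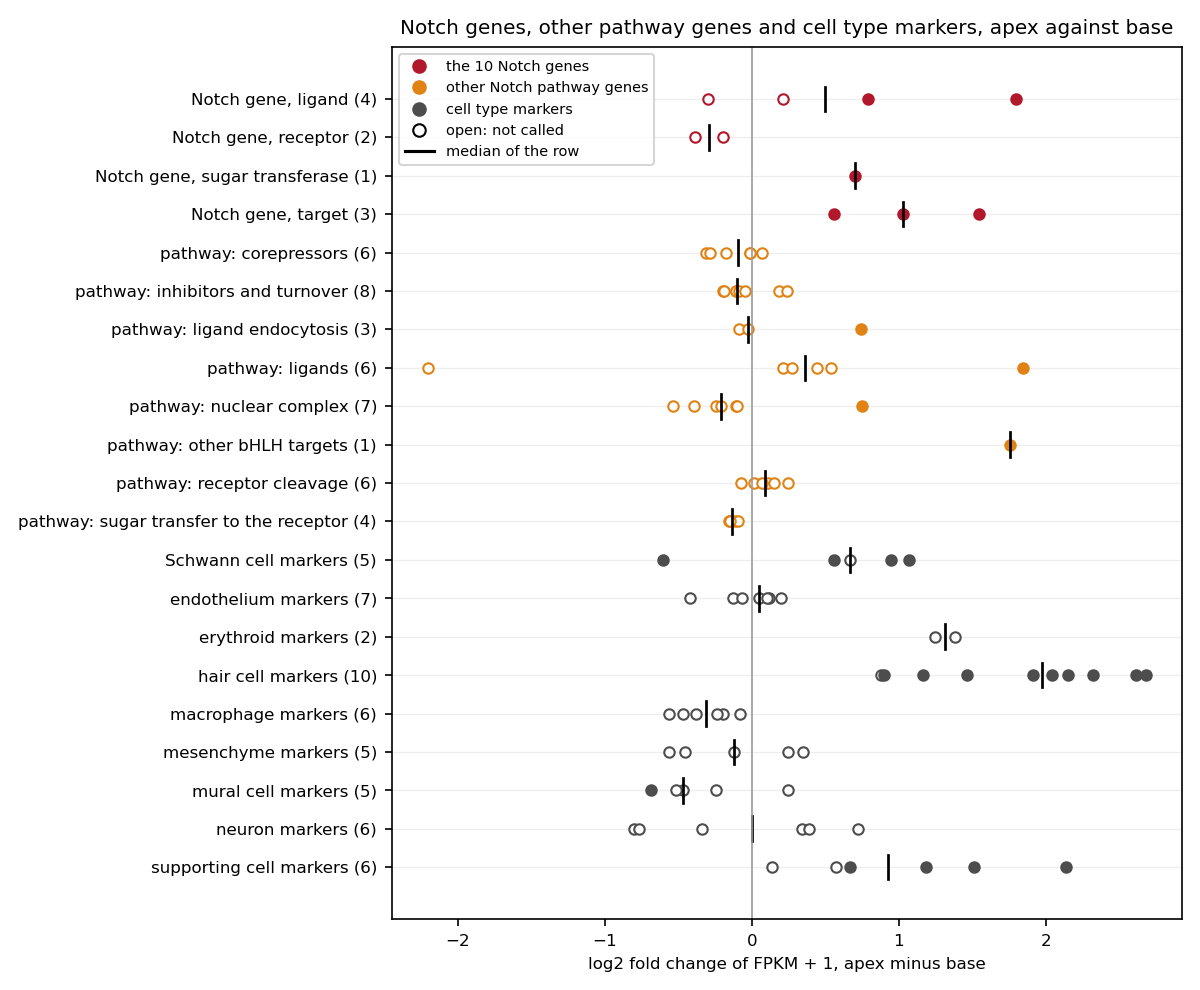
Log2 fold change of apex against base, on the scale of log2(FPKM + 1), for the 10 Notch genes and the other pathway genes by role and for markers of 9 cell types, one point per gene, filled where called, with a black tick at the median of each row, a gray line at 0 and the number of genes tested in brackets. The 10 Notch genes run from -0.38 to 1.80, most other pathway genes lie near 0, and hair cell markers run from 0.88 to 2.68.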

How the data were processed

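Poly(A) libraries (paired 101 bp reads) were made from pooled tissue of the basilar papilla. The authors aligned reads with STAR 2.5.4b to galGal5, with Ensembl genes, and deposited FPKM values computed with Cuffdiff 2.2.1, 1 column per library. Normalization between libraries is not given in the sources used here, and the absolute number of fragments behind a value is not known.

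The FPKM values were taken as deposited. Regions were compared in 1 limma 3.58.1 fit (R 4.3.3) of all 9 libraries on log2(FPKM + 1), with region as the factor, a mean-variance trend and 13045 of 24880 genes (mean of at least 1 FPKM in at least 1 region). In place of the Cuffdiff test of the study, limma was used because the reads are not in the table. Thresholds on adjusted p (0.05), ratio (1.5) and trend were those of the study. Loci were converted to 1-based starts.

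Samples with the same number were taken as paired only in the replicate block and in the comparisons of same-numbered pairs. The main fit held region alone, so its p-values leave this pairing out. The methods give 4 chickens per replicate, and deviations from region means correlated between same-numbered libraries of different regions (r from 0.368 to 0.660, 9 pairs). The labels do not state that a number marks the same animals in all regions. Alternatives were the block on replicate number, other pseudocount, filters, scalings, ratios and variance model, the 6 libraries of a comparison alone, and leaving out each library. The 3 genes most like each member were those with the highest Pearson correlation over the 9 libraries.

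On simulated data the fit recovered 167 of 200 genes changed 2-fold in apex against base among 12907 genes, with 4 false calls. The simulated noise was independent in each library, and no genes with low levels were changed. Deviations of real libraries with the same number were correlated, so these counts do not give the recovery or false calls in the real data. The members and gene lists were chosen with earlier results of these data known. All members were named. From the wider list, genes called in a comparison were named, and the genes past the adjusted p alone were added after their values were seen. *DLL4* was named with its level because the ligand sums leave it out.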

Additional observations from a re-analysis of the deposited data

How the results depend on the processing

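Under the 17 alternative settings chosen at the start, *DNER*, *JAG2*, *HEY2* and *LFNG* kept an adjusted p below 0.05 in limma for apex against base (highest 0.00757, 0.00943, 0.0112 and 0.0345). Fits that left out 1 library called 4 to 6 of the 10 Notch genes in apex against base, 0 to 3 in middle against base and 0 in apex against middle. They called 2 to 4 and 1 to 2 genes of the wider list in the first and second comparison, and 996 to 1685, 71 to 692 and 0 to 11 of all genes in the 3 comparisons.

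A ratio of 2 in place of 1.5 left 3 of the 6 Notch genes called, and 739 of 1541 genes in apex against base and 257 of 573 in middle against base. Without a ratio the counts were 2879 and 1096 genes, and 9 of the wider list in apex against base. The replicate block raised all genes called in middle against base to 1288 and in apex against middle to 275, and the wider list to 6, 6 and 2; among the 10 Notch genes it changed no call other than that of *HEY1* in the middle. Fits of the 6 libraries of a comparison alone called 252 genes in middle against base and 0 in apex against middle. Without the intensity trend, 13 genes were called in apex against middle and 1 of the wider list in middle against base, and without a filter on low values again 1 of the wider list.

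Leaving out the 3 libraries of one number was added after seeing the data. In apex against base it called 2, 5 and 4 Notch genes without the libraries numbered 1, 2 and 3, and 623, 1245 and 925 genes in all. Without number 1, adjusted p in limma was 0.0739 for *LFNG*, 0.261 for *HEY1*, 0.0536 for *HEY2* and 0.183 for *HEYL*, and without number 3 it was 0.0798 for *HEY1* and 0.0501 for *HEYL*. In middle against base it called 0, 0 and 2 Notch genes, and 0, 120 and 75 genes in all, with *DNER* at 0.1001 and *HEY2* at 0.144 without number 1. The wider list had 2 calls in apex against base without number 1, and 0 in middle against base without number 1 or 3. In apex against middle it called 0 genes each time.

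Signs turned only for genes near 0 in apex against middle: with 1 library left out, *HEY1* ran from -0.066 (without middle replicate 2) to 0.39, *DLL1* from -0.054 (without apex replicate 1) to 0.11 and *JAG1* from -0.14 to 0.027 (without apex replicate 2). *DLL1* was also below 0 without middle replicate 3, and it was -0.022 without the libraries numbered 1, while *JAG1* was 0.0017 without those numbered 2. The cause of these changes was not tested.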
